A study of Homo sapiens with 10 samples.

Results

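The histone genes of a hepatic differentiation of H1 human embryonic stem cells (hESCs), an established cell line, were described over 10 libraries of bulk RNA. They were all genes of the deposited table whose names begin with HIST and a cluster number, H1F, H2AF or H3F. This name rule found 12 of the 12125 genes in the table, of which 2 were replication-dependent HIST genes (HIST1H1C and HIST1H2BK) and 10 were variant genes (H1F0, H1FX, H2AFJ, H2AFV, H2AFX, H2AFY, H2AFY2, H2AFZ, H3F3A and H3F3B). The GENCODE release 29 annotation holds 87 coding genes with such names, 71 HIST and 16 variant genes, and those without a value in the table were not analysed here. In each gene of the table at least 2 libraries reached 26, and HIST1H1C, whose highest values were 30 and 26, lay at this edge.

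RNA was sampled from undifferentiated hESCs in mTeSR1 medium (day 0), under Activin A at 100 ng/ml (days 1, 2 and 3), under FGF4 at 30 ng/ml with BMP2 at 20 ng/ml (days 5 and 7), under HGF and KGF at 20 ng/ml each (days 9 and 11), and at days 13 and 21. The labels give Oncostatin M (OSM) at 20 ng/ml for both of the last days, whereas the durations of the steps in the protocol make day 13 the last day of HGF and KGF and day 21 the last day of OSM. All libraries came from 1 line, and each day had 1 library, so no difference between days had a replicate check and no test was made. The values are GC-normalized whole numbers on a scale that is nearly the same in every library, and they carry no depth of a single library. The methods of the study give only an average depth over the libraries. From 1000 upward, values lay on 31 levels with 9 or 10 genes of each library on every level, so that an equal value means an equal rank and not an equal amount of RNA. H2AFZ, H3F3A and H3F3B reached these levels.

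Histones package DNA into nucleosomes, around a core of H2A, H2B, H3 and H4 with an H1 linker histone outside. The replication-dependent genes supply histones for the new DNA of S phase. Most of their mRNAs have no poly(A) tail and end in a short stem-loop that is bound by SLBP. The variant genes are transcribed outside S phase too, have polyadenylated mRNAs, and give histones that dedicated chaperones place at particular regions of the genome. HIST1H1C and HIST1H2BK are among the HIST genes known to give polyadenylated mRNA as well, and the TruSeq RNA kit used here selects polyadenylated RNA. In bulk RNA, fewer cells that express a gene and less RNA per cell cannot be told apart.

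The stem-loop was searched for in GENCODE release 29 transcripts (GRCh38) as a stem of 6 base pairs, with G-U pairs allowed, that opens with GG, closes with CC and encloses 4 bases opening with TT. Such a stem-loop lay in 425 of 19684 coding genes (2.16%) and in 32 of the 87 genes with histone names (36.8%), 31 of them HIST genes. The remaining gene was the variant gene H2AFX, which was also the only member in the table with a match. It is shown because H2AFX is known to give both a stem-loop mRNA and a polyadenylated one. The stem stands in capitals, written as DNA, at chr11:119094898-119094913 on the minus strand, in the 3' UTR 49 bases after the stop codon, in a transcript of 1614 bases with a poly(A) signal 45 bases from its end.
H2AFX stem-loop: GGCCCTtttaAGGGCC
The annotated models of HIST1H1C (642 bases) and HIST1H2BK (381 bases) hold coding sequence alone, as they do for 34 of the 71 HIST genes, so this search could not find a stem-loop in them.

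RefSeq promoter windows of 300 bases (GRCh38.p14, 250 before to 50 after the start) were matched to 11 of the 12 members, and H1F0 was not matched. HIST1H2BK and H2AFY had 2 windows each and H3F3A had 4. Only the first listed window of each gene was used, so matches at their other starts are not covered. Each window was searched on both strands for CCAAT (the CCAAT box), TATAA (the TATA box), ATTTGCAT (the octamer, known from H2B promoters) and TTTCGCGC (an E2F-type motif). CCAAT was found in 8 of the 11 windows (35.7% of all 27305 windows hold it), TATAA in 5 (21.1%), the octamer in H3F3B and HIST1H2BK (1.8%) and the E2F-type motif in HIST1H2BK (0.546%). The windows of HIST1H2BK, the member with the largest difference toward a higher value at day 21, and of H2AFZ and H2AFX, those with the largest toward a lower one, are printed with all matches on either strand in capitals.
HIST1H2BK (chr6:27146809-27147108, minus strand): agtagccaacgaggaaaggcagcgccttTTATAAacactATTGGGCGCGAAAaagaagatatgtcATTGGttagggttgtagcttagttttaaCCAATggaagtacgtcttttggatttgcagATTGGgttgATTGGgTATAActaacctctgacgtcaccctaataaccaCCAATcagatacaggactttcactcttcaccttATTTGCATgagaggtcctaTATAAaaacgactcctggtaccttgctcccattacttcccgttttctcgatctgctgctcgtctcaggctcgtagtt
H2AFZ (chr4:99950226-99950525, minus strand): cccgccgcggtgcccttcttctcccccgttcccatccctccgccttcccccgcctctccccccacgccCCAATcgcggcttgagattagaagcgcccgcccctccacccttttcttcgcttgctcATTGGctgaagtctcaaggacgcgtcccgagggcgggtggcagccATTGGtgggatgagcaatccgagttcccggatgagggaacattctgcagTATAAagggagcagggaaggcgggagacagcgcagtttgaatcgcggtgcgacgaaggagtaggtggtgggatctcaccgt
H2AFX (chr11:119095416-119095715, minus strand): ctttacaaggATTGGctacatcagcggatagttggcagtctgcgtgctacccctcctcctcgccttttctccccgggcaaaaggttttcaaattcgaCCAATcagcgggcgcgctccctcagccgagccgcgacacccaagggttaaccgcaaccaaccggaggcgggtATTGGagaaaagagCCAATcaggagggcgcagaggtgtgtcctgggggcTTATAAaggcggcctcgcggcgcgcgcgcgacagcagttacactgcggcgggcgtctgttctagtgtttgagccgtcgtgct
All 3 windows held TATAA near the start, with its first base at position -27 in HIST1H2BK and at position -31 in H2AFZ and H2AFX, and all held CCAAT. The octamer of HIST1H2BK began at position -46, and its E2F-type match, on the reverse strand, began at position -206, right after a CCAAT match at position -211. These are matches of letters only.

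Differences between days are given on the scale of log2(value + 1), later minus earlier, on which changes of genes with low values come out too small. A gene was counted as at least 2-fold higher or lower where this difference was at least 1 in size and the larger value was at least 50. Shares of genes counted in this way are of the genes that met this minimum. Days 9 and 11, which share a medium, were used to see how far 2 such libraries lay apart. Between them the standard deviation of the log2 differences was 0.36 over 8444 genes with a larger value of at least 50, and 0.41 over the 12 members. None of the 10 members that met the minimum was 2-fold higher (1.04% of the 8444 genes were) or 2-fold lower (0.568%) at day 11 than at day 9. The largest member differences were 1.00 for HIST1H1C, which was at 1 and 3, and 0.65 for H1F0. Of all pairs of successive days, days 9 and 11 had the fewest genes counted, so this spread is a low measure. Between days 5 and 7, which also share a medium, 674 of 8755 genes were 2-fold higher and 556 lower.

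**Figure D1:**
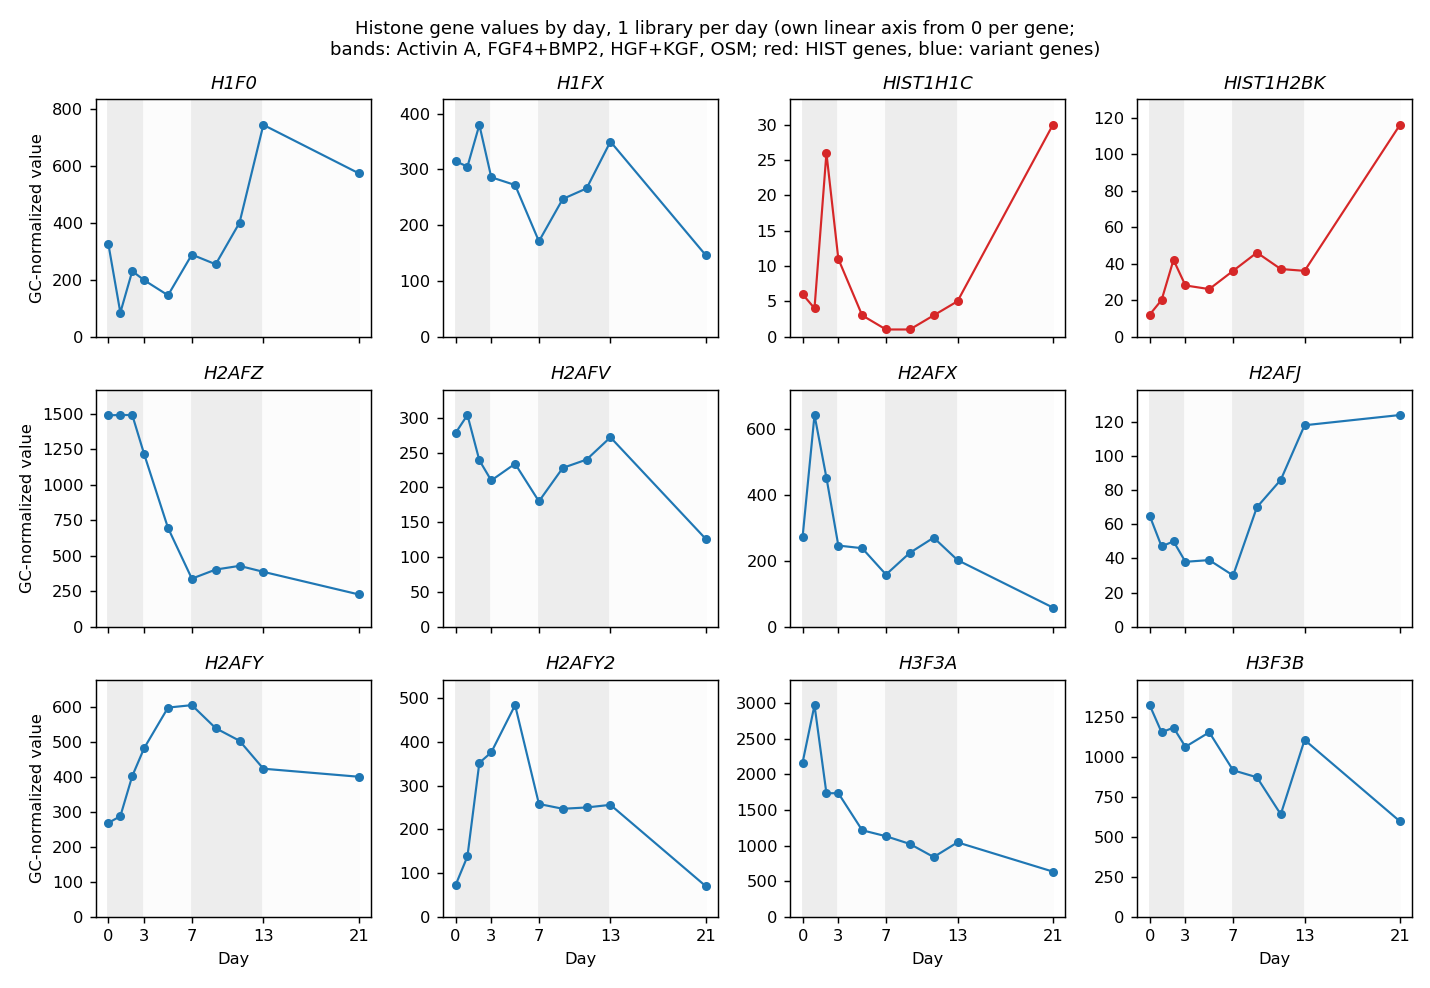
The GC-normalized value of each histone gene is plotted against the day, with 1 library per point, a linear axis from 0 for each gene, HIST genes in red, variant genes in blue and grey bands for the culture steps. H2AFZ is near 1490 up to day 2 and at 338 by day 7, H2AFY2 is highest at day 5, and both HIST genes are highest at day 21.

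HIST1H1C (ENSG00000187837, chr6:26055968-26056699 in the table, minus strand) and HIST1H2BK (ENSG00000197903, chr6:27114197-27114577, minus strand) encode a linker histone and a core histone of the H2B type. The build of the table's intervals is not named. HIST1H2BK was at 12 at day 0, 20, 42 and 28 at days 1, 2 and 3, 26 and 36 at days 5 and 7, 46 and 37 at days 9 and 11, 36 at day 13 and 116 at day 21. Its day 21 value stood apart from the rest, 3.17 log2 above day 0 and 1.66 above day 13, and it was the only one of at least 50, so that the gene could be counted only in comparisons with day 21. HIST1H1C was at 6, 4, 26 and 11 at days 0, 1, 2 and 3, at 3 and 1 at days 5 and 7, at 1 and 3 at days 9 and 11, at 5 at day 13 and at 30 at day 21. It was thus highest at days 2 and 21 with values between 1 and 11 on the other days, and it never reached 50. The coding sequence of HIST1H2BK was identical to that of HIST1H2BE at 94.0% of its 381 bases and to those of HIST2H2BF and HIST1H2BL at 92.4%, so that its reads may be shared with other H2B genes.

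H1F0 (ENSG00000189060, chr22:38201114-38203442, plus strand), a linker histone gene known for its expression in differentiated, slowly dividing cells, was at 324 at day 0, 84, 230 and 198 at days 1, 2 and 3, 145 and 288 at days 5 and 7, 254 and 400 at days 9 and 11, 744 at day 13 and 574 at day 21. It was lowest at day 1, 1.93 log2 below day 0, and highest at day 13, 1.37 above day 7. H1FX (ENSG00000184897, chr3:129033615-129035120, minus strand), another linker variant, was at 315 at day 0, 305, 380 and 286 at days 1, 2 and 3, 272 and 171 at days 5 and 7, 247 and 266 at days 9 and 11, 350 at day 13 and 146 at day 21. H1FX differed by 1.03 from day 7 to day 13 and by -1.26 from day 13 to day 21, so that its lowest values were those of days 7 and 21. The ratio of H1F0 to H1FX, as a log2 ratio relative to day 0, was -1.89, 1.05 and 1.93 on days 1, 13 and 21.

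H2AFZ and H2AFV encode the 2 forms of H2A.Z, which sits at promoters and enhancers and is known to be needed for the differentiation of mouse embryonic stem cells. H2AFZ (ENSG00000164032, chr4:100869243-100871512, minus strand) was at 1488 at day 0, 1490, 1490 and 1214 at days 1, 2 and 3, 695 and 338 at days 5 and 7, 402 and 428 at days 9 and 11, 386 at day 13 and 227 at day 21. The first 3 values are 1 level of the scale. Most of the difference from day 0 to day 21, -2.71 log2, was in place at day 7, at -2.13, and the step from day 5 to day 7 alone was -1.04. H2AFV (ENSG00000105968, chr7:44866390-44887676, minus strand) was at 278 at day 0, 304, 239 and 210 at days 1, 2 and 3, 234 and 180 at days 5 and 7, 228 and 240 at days 9 and 11, 272 at day 13 and 126 at day 21. Up to day 13 H2AFV kept within 180 and 304, and it was 1.10 log2 lower at day 21 than at day 13. The H2AFZ to H2AFV log2 ratio, relative to day 0, was 0.11, -0.85 and -1.51 on days 3, 5 and 7 and between -1.91 and -1.57 from day 9 on. Pseudogenes named after H2AFZ number 6 in the annotation and those named after H2AFV 1, which may share reads with them.

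H2AFX (ENSG00000188486, chr11:118964564-118966177, minus strand) encodes H2A.X, which is phosphorylated around DNA breaks. It was at 272 at day 0, 642, 452 and 246 at days 1, 2 and 3, 238 and 158 at days 5 and 7, 224 and 270 at days 9 and 11, 202 at day 13 and 58 at day 21. H2AFX was highest at day 1, 1.24 log2 above day 0, and lowest at day 21, 3.45 below day 1, the widest span of the variant genes at 11.1-fold. H2AFJ (ENSG00000246705, chr12:14927353-14928515, plus strand), an H2A variant known from senescent and luminal epithelial cells, was at 65 at day 0, 47, 50 and 38 at days 1, 2 and 3, 39 and 30 at days 5 and 7, 70 and 86 at days 9 and 11, 118 at day 13 and 124 at day 21. It was lowest at day 7 and higher at each later day, with a difference of 1.94 from day 7 to day 13 and of 0.07 from day 13 to day 21. H2AFJ and H2AFX thus lay on opposite sides of their day 0 values at day 21, at 0.92 and -2.21.

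H2AFY and H2AFY2 encode the macroH2A histones, large H2A variants with an extra macro domain that are found on silenced chromatin and the inactive X chromosome. H2AFY (ENSG00000113648, chr5:134669590-134735312, minus strand) was at 269 at day 0, 288, 403 and 483 at days 1, 2 and 3, 599 and 606 at days 5 and 7, 540 and 504 at days 9 and 11, 424 at day 13 and 401 at day 21. It was highest at day 7, 1.17 log2 above day 0, and lower at each later day. H2AFY2 (ENSG00000099284, chr10:71812552-71872015, plus strand) was at 72 at day 0, 138, 352 and 376 at days 1, 2 and 3, 484 and 258 at days 5 and 7, 247 and 250 at days 9 and 11, 256 at day 13 and 70 at day 21. H2AFY2 was 2.37 log2 higher at day 3 than at day 0, stayed between 247 and 258 from day 7 to day 13, and at day 21 was back near its day 0 value, 1.86 below day 13. The H2AFY to H2AFY2 log2 ratio, relative to day 0, was -1.69 at day 2 and 0.61 at day 21.

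H3F3A and H3F3B encode the same protein, H3.3, the H3 variant placed at active genes by HIRA and at telomeres and heterochromatin by DAXX with ATRX. H3F3A (ENSG00000163041, chr1:226249552-226259224, plus strand) was at 2164 at day 0, 2969, 1733 and 1734 at days 1, 2 and 3, 1214 and 1130 at days 5 and 7, 1022 and 838 at days 9 and 11, 1044 at day 13 and 634 at day 21. H3F3B (ENSG00000132475, chr17:73772517-73775860, minus strand) was at 1326 at day 0, 1156, 1185 and 1065 at days 1, 2 and 3, 1156 and 918 at days 5 and 7, 874 and 642 at days 9 and 11, 1108 at day 13 and 598 at day 21. Both were lowest at day 21, by 1.77 and 1.15 log2 against day 0, and H3F3B had the narrowest span of the members at 2.22-fold. Relative to day 0, the H3F3A to H3F3B log2 ratio was 0.65 at day 1 and between -0.79 and -0.32 from day 5 on. Pseudogenes named after H3F3A number 6 and those named after H3F3B 2.

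The members were then followed through the steps of the culture, each count set beside the share of the table's genes that met the minimum of 50. The members that met it numbered 10 from day 0 to day 1, 10 from day 0 to day 3, 9 from day 3 to day 7, 10 from day 7 to day 13, and 11 in both comparisons with day 21. At day 1, 1 member (H2AFX) was at least 2-fold higher than at day 0, where 4.01% of these genes were, and 1 (H1F0) was 2-fold lower, where 4.71% were. Between days 0 and 3, the Activin A step, 1 member (H2AFY2) was 2-fold higher (11.1%) and 0 were lower (9.07%). By sign alone, 8 of the 10 variant genes had a lower value at day 3, as had 51.4% of all 12125 genes. Apart from H1F0 (-0.71) and H2AFJ (-0.76), the lower ones differed by -0.40 to -0.14. That is less than the standard deviation of 0.41 over the members between days 9 and 11. Between days 3 and 7, the FGF4 and BMP2 step, 0 members were 2-fold higher (13.2%) and 1 (H2AFZ) was lower (12.8%), a share no larger than that of the table. Between days 7 and 13, 3 members (H1F0, H1FX and H2AFJ) were 2-fold higher (9.65%) and 0 were lower (8.21%). Between days 13 and 21, 1 member (HIST1H2BK) was 2-fold higher (8.57%) and 4 (H1FX, H2AFV, H2AFX and H2AFY2) were lower (9.08%). By sign alone, 9 of the 10 variant genes had a lower value at day 21, as had 54.2% of all 12125 genes. Among them, H2AFY (-0.08) and H1F0 (-0.37) differed by less than 0.41.

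Across the whole course, from day 0 to day 21, 1 member (HIST1H2BK) was at least 2-fold higher (23.9% of the genes with a larger value of at least 50) and 6 (H1FX, H2AFV, H2AFX, H2AFZ, H3F3A and H3F3B) were lower (26.4%). The 6 lower genes comprised both H3.3 genes, both H2A.Z genes, H2AFX and the linker gene H1FX. H1F0, H2AFJ and H2AFY had higher values at day 21 than at day 0, by 0.82, 0.92 and 0.57 log2, and H2AFY2 differed by -0.04. When the libraries were scaled by the median of ratios, the median of all genes between these days moved from -0.12 to 0.06, a shift of 0.18. The scaled differences were 1.01 for H1F0, 1.11 for H2AFJ and 0.15 for H2AFY2, whose sign turned, and H1FX (-0.92), H2AFV (-0.95) and H3F3B (-0.96) were then no longer 2-fold lower, against 27.4% of the table higher and 22.3% lower on that scale by the same count. H2AFX (-2.02), H2AFZ (-2.52), H3F3A (-1.58) and HIST1H2BK (3.35) kept their calls under the scaling.

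**Figure D2:**
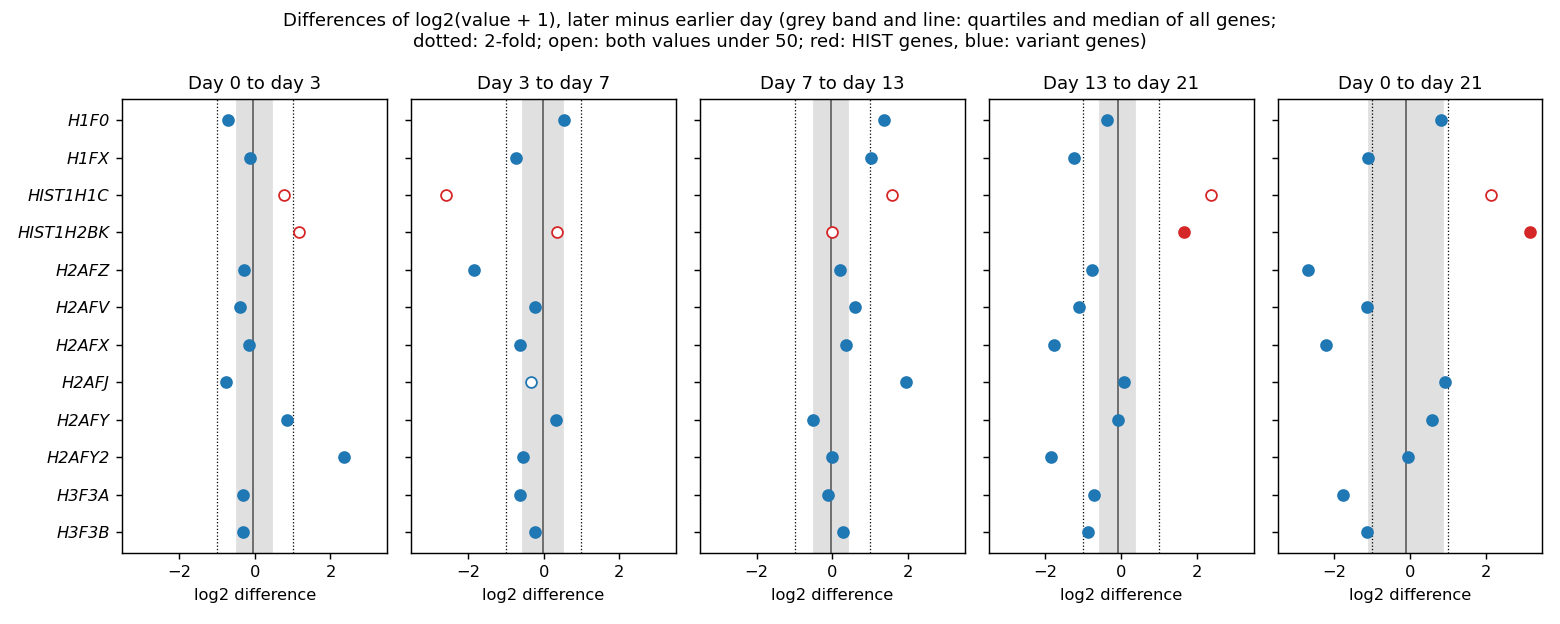
The difference of log2(value + 1), later minus earlier day, is plotted for each member in 5 pairs of days, with HIST genes in red, variant genes in blue, open symbols where both values are under 50, dotted lines at 2-fold, and the quartiles and median of all genes as a grey band and line. From day 13 to day 21, HIST1H2BK lies at 1.66 and HIST1H1C at 2.37, while 9 of 10 variant genes lie below 0.

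The classes were set against each other by the medians of their log2 differences. The median of the 10 variant genes was -0.30 from day 0 to day 3, -0.44 from day 3 to day 7, 0.31 from day 7 to day 13 and -0.83 from day 13 to day 21, where the medians of all genes lay between -0.10 and -0.03. Relative to day 0, their median was -0.70, 0.06 and -1.12 on days 7, 13 and 21. The variant median at day 21 therefore rests on the day 21 library, and it was -0.04 without H2AFZ, H3F3A and H3F3B, the members on the shared levels. For the HIST genes, 2 genes with low values, the medians were 0.97, -1.12, 0.79 and 2.02 over the same steps and 2.66 from day 0 to day 21, against 0.64 from day 0 to day 13. The difference between the class medians from day 0 to day 21 was 3.78, and it rests on HIST1H1C, which met the table's minimum in 2 libraries only through days 2 and 21, and on HIST1H2BK, which reached 50 only at day 21. The high value at day 21 is thus part of why HIST1H1C is in the table and HIST1H2BK could be counted, and the difference is given as a description. With H2AFX placed among the HIST genes it was 3.25. As a share of the summed value of the 12 members, which is not corrected for gene length, the HIST genes held 0.273% at day 0, between 0.322% and 1.13% from day 1 to day 13, and 4.7% at day 21.

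Genes that make, process and place histones were described by list, and the medians are log2 differences from day 0 to day 21 beside -0.12 for all genes, of which, among those with a larger value of at least 50, 26.4% were at least 2-fold lower and 23.9% higher. Of 25 genes of S phase and proliferation found in the table (CCNE2 was not found), 23 were at least 2-fold lower and 0 higher, with a median of -3.28. Of the 9 replication-coupled chaperones and related factors, 8 of which had a larger value of at least 50, 6 were lower and 0 higher (median -2.62). Of the 17 genes listed as replication-independent chaperones and exchange factors, 9 were lower and 0 higher (median -1.17). The 9 included SSRP1, SUPT16H and HJURP. HIRA, CABIN1, UBN1, UBN2, ATRX, SRCAP, INO80 and NAP1L4 were not among them. Of the 20 genes of histone mRNA processing and transcription, 16 of which met the minimum of 50, 9 were lower and 1 higher (median -0.67). All genes of the S phase list and of the 17 met it. The S phase list and the variant histone genes had a low median at day 7 and the lowest at day 21. S phase medians relative to day 0 were -1.68, -0.96, -1.32 and -3.28 on days 7, 11, 13 and 21. The 2 courses differed at day 13, where the variant median was 0.06. The lists share MCM2.

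SLBP, which binds the stem-loop, had values of 116, 178, 210 and 125 on days 0, 7, 9 and 21, and its difference over the course was 0.11. NPAT, a coactivator of the replication-dependent genes, had values of 47, 80 and 35 on days 0, 2 and 21. CHAF1A and CHAF1B, subunits of the CAF-1 complex that loads histones behind the replication fork, went from 388 to 13 and from 116 to 18 between days 0 and 21. ASF1B, the H3 and H4 chaperone linked to dividing cells, went from 100 to 6, and its paralog ASF1A had values of 73, 160 and 6 on days 0, 3 and 21. All 4 thus had their lowest values at day 21. NASP, which keeps a soluble pool of H3 and H4, had values of 1640, 424 and 226 on days 0, 13 and 21. HIRA, the chaperone of H3.3, had values of 226 and 143 on days 0 and 21, a difference of -0.66, and DAXX had values of 212 and 54, a difference of -1.95. HIRA therefore moved less over the course than H3F3A did, at -1.77.

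Of the histone variants outside the name rule, CENPA, the H3 variant of the centromere, was the only one of 5 found in the table. Its value was 74 on day 0, 48 and 50 on days 3 and 5, between 173 and 189 from day 7 to day 13, and 35 on the last day. The highest values of CENPA thus lay between days 7 and 13, and its lowest on the last day. Among the proliferation genes, PCNA, the sliding clamp of DNA polymerase, had values of 474, 92, 146 and 60 on days 0, 7, 13 and 21. MCM2, a subunit of the replicative helicase, was at 408, 314, 230 and 41 on these days, CCNA2, the cyclin of S phase, at 305, 39, 160 and 8, and MKI67, a marker of cycling cells, at 522, 122, 390 and 111. PCNA, CCNA2 and MKI67 were thus low at day 7, higher again at day 13 and lowest at day 21. CDKN1A and CDKN1C encode inhibitors of cyclin-dependent kinases. CDKN1A had values of 69, 5, 300, 58, 207 and 303 on days 0, 1, 5, 7, 13 and 21, and CDKN1C values of 20, 30, 372, 1045, 724 and 1130. CDKN1A was thus nearly as high at day 5 as at day 21, while CDKN1C was high from day 7 on.

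**Figure D3:**
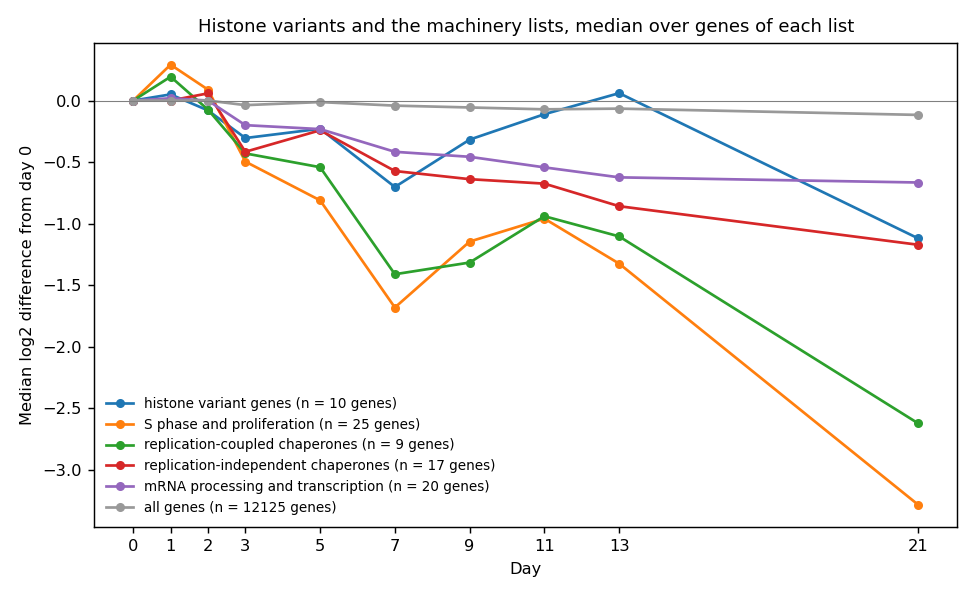
The median log2 difference from day 0 is plotted against the day for the 10 variant histone genes, the lists of S phase, chaperone and mRNA processing genes, and all 12125 genes, with 1 library per point. The S phase list lies at -1.68 at day 7 and -3.28 at day 21, and the variant genes lie at 0.06 at day 13 and -1.12 at day 21.

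Markers of the labelled cells and of other cell types were summed in each library. The 5 hESC markers summed to 12525 at day 0 and 119 at day 21, where NANOG and SOX2 were at 0. The 6 hepatocyte markers summed to 27 and 53065 on these days. The 5 definitive endoderm markers summed to 15, 20924 and 254 on days 0, 3 and 21. The 5 hepatoblast markers summed to 295, 21707 and 25279 on days 0, 13 and 21. All 5 stroma markers were found, and their sum was between 167 and 538 up to day 5, and 3966, 19283 and 21836 on days 7, 13 and 21. The 3 red cell markers summed to at most 59 up to day 9, 3560 at day 13 and 1732 at day 21. Of 4 macrophage markers, CD68 and PTPRC were found, with a sum of at most 50 up to day 13 and 324 at day 21. Of 3 endothelium markers, CDH5 and KDR were found. The undifferentiated hESCs already had an endothelium sum of 520, with KDR alone at 517. Day 13 lay above this, at 975, and day 21 below it, at 422. H1F0 and H2AFJ were high at days 13 and 21, as the stroma and red cell sums were. HIST1H2BK (36 and 116) and HIST1H1C (5 and 30) were higher at day 21 than at day 13. So were the macrophage sum, ALB and the hepatoblast marker DLK1 (310 and 4855). HIST1H1C stayed under 50 and was at 26 at day 2, where the macrophage sum was 18. The hepatoblast and hepatocyte sums were high at days 13 and 21 too, the hepatocyte sum at 30556 and 53065. Of its markers, ALB (168 and 4866), SERPINA1 and TF were higher at day 21 than at day 13, TTR was equal, and APOA1 and FGB were lower. The courses thus do not set the labelled cells apart from the others. The part of these cells in the values was not tested.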

How the data were processed

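Bulk RNA of 10 libraries, 1 per day, was measured by the authors with the TruSeq RNA kit on a MiSeq. The submitters' processing notes name Bowtie2 2.2.0 and RSEM 1.2.17, and the authors aligned reads to an Ensembl transcriptome, which their methods name as mm10, a mouse build, although the table's gene names and identifiers are human, and corrected them for GC content with EDASeq. The notes also list hg19 without its role, and the build of the table's intervals is not given in the sources used here. The values the authors deposited are normalized scores, not read counts. Their totals lay between 2330948 and 2362740, so they carry no depth, the methods give only an average over libraries, and no counting interval is given.

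Columns were matched to days by name. Differences are of log2(value + 1) with a pseudocount of 1, and a gene was called at 2-fold with a larger value of at least 50. With 1 library per day nothing was tested. The genes given with values are, apart from cell type markers, all members and SLBP, NPAT, CHAF1A, CHAF1B, ASF1A, ASF1B, HIRA, DAXX, NASP, CENPA, PCNA, MKI67, CCNA2, MCM2, CDKN1A and CDKN1C. The members and lists were chosen with earlier results of these data known. Alternatives were other pseudocounts, filters, folds, scalings and days. Python 3.11.15, numpy 2.4.6, pandas 2.3.3 and matplotlib 3.10.9 were used. Of the computations, only the calling of changed genes was tested on simulated data, with planted changes larger than 2-fold. Promoters came from RefSeq and transcripts from GENCODE release 29.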

Additional observations from a re-analysis of the deposited data

How the results depend on the processing

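Under other pseudocounts, scalings, filters, folds and member sets, 152 recomputed values stayed near the value reported, 19 did not and 1 turned its sign. Many of the 152 are counts of 0 that stayed 0, which a higher fold or filter could not change. Leaving out the members on the shared levels could not change the HIST medians, since no HIST gene is among them. The number 152 is therefore no measure of how firm the results are. The HIST medians rest on 2 low genes. With a pseudocount of 5 they were -0.55 from day 3 to day 7 and 0.37 from day 7 to day 13. With HIST1H2BK alone, the HIST gene that reached 50 in a library, they were 0.35, of the opposite sign, from day 3 to day 7, 0.00 from day 7 to day 13 and 3.17 from day 0 to day 21. HIST1H2BK reached 50 only at day 21, so this choice favours a large day 21 difference and is no check of it. Without a filter on low values, HIST1H1C or HIST1H2BK added calls: 1 higher from day 0 to day 3, 1 lower from day 3 to day 7, 1 higher from day 7 to day 13, and 2 higher from day 13 and from day 0 to day 21. At 4-fold, 0 HIST genes were higher from day 13 to day 21, and among the variant genes 0 were lower from day 3 to day 7, 0 higher from day 7 to day 13, 0 lower from day 13 to day 21 and 2 lower from day 0 to day 21. From day 0 to day 21, the median of ratios scaling gave 2 variant genes higher and 3 lower, and the variant median without the members on the shared levels was -0.040. With day 13 in place of day 21, which was tried only once the values were known, the variant median was 0.060, of the opposite sign, with 2 variant genes higher and 2 lower, and the HIST median was 0.64 with 0 genes higher. The difference of the class medians was 3.25 with H2AFX among the HIST genes and 2.33 for the means of days 0 and 1 against those of days 13 and 21. Leaving out the HIST genes known for polyadenylated mRNA left no HIST gene and gave no value. Apart from what each alternative leaves out, the cause was not tested. The depth of each library is not known from the values, so what it limits was not computed. No paired analysis was possible because each day had 1 library.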
